A study of Mus musculus with 7 samples.

Results

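The 8 genes described here encode enzymes of cholesterol synthesis: Hmgcs1, Idi1, Fdps, Fdft1, Sqle, Lss, Cyp51 and Dhcr7. They were chosen by symbol as enzymes of the mevalonate and sterol pathway, and all 8 were found among the 23337 genes of the deposited count table. RNA was sequenced from sorted mouse cardiomyocytes at postnatal day 6 (P6, 4 libraries, P6a to P6d) and postnatal day 30 (P30, 3 libraries, P30a to P30c). Mice at both ages had the label Rosa-Tom/Cas9, and which of the Rosa-Tom and Rosa-Cas9 alleles each mouse carried is not stated. All had received AAV9-cTNT-Cre, a virus that expresses Cre recombinase from the promoter of cardiac troponin T, on postnatal day 1, so time since the virus and age cannot be told apart. Cells were released by collagenase perfusion of the heart and collected by fluorescence-activated sorting. Days 6 and 30 come from the titles and age labels; a treatment text shared by the samples puts collection at P14 instead. Whether the libraries came from separate animals is not stated, so the p-values speak only of how these libraries vary, part of which may be technical.

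Cells make cholesterol from acetyl-CoA. The early, mevalonate part of the route builds isoprenoid units and joins them into farnesyl diphosphate, which can also leave the route for protein prenylation, ubiquinone or dolichol; the later, sterol part begins when squalene is made and closes it into lanosterol, which is trimmed to cholesterol. Most of the enzyme genes are targets of the transcription factor SREBP2, the product of Srebf2, which the protein SCAP escorts out of the endoplasmic reticulum when sterols are low and which INSIG proteins hold back when sterols are high. In a growing heart muscle cell cholesterol is a component of the surface membrane, of its caveolae and of the transverse tubules.

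Between P6 and P30, 6 of the 8 enzyme transcripts fell and none rose (quasi-likelihood test of edgeR, with p-values adjusted by Benjamini-Hochberg over 12561 tested genes and a threshold of 0.05). Over all tested genes 27.8% fell and 26.3% rose, 54.1% in either direction. Sqle fell the furthest of the 8, 6.72-fold, followed by Idi1, Lss, Cyp51, Hmgcs1 and Fdps, the last by 1.45-fold. Fdft1 and Dhcr7 did not pass the test. The median log2 fold change (P30 over P6) was -0.89 over the 8 enzymes and -0.02 over all tested genes. In bulk libraries such as these, fewer cells of a type and less RNA per cell cannot be told apart.

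The enzymes lie on 7 chromosomes of GRCm38, the build the submitters name as mm10, by GENCODE release M21. Hmgcs1 (chromosome 13, 119690379 to 119708260, plus strand) and Idi1 (chromosome 13, 8885501 to 8892451, plus strand) share a chromosome. Fdps is on chromosome 3 (89093588 to 89101959, minus strand), Fdft1 on chromosome 14 (63145150 to 63179578, minus strand) and Sqle on chromosome 15 (59315077 to 59331192, plus strand). Lss is on chromosome 10 (76531588 to 76557138, plus strand), Cyp51 on chromosome 5 (4081145 to 4104746, minus strand) and Dhcr7 on chromosome 7 (143823145 to 143848410, plus strand). Sqle and Dhcr7 overlap no other annotated gene. Fdft1 overlaps Ctsb and Cyp51 overlaps Akap9, each a coding gene on the opposite strand. Fdps overlaps a predicted coding gene (Gm43738) and a small nuclear RNA gene on its own strand, and the other 3 overlap antisense or predicted genes on the opposite strand. No value for Gm43738 was used here. No source used here gives the strand setting of the counting, and reads in these overlaps cannot be assigned with certainty. Ctsb, a lysosomal protease gene, rose by 0.61 ± 0.08 (SE) on the log2 scale, and Akap9, an anchoring protein gene of the Golgi, had a log2 fold change of -0.15 ± 0.16 and passed only with the length trend taken out (adjusted p = 0.0126) among the 12 alternatives; both were looked up after their overlap was seen, and their part in the counts of Fdft1 and Cyp51 was not tested.

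Promoter sequences from RefSeq (GRCm38.p6) were matched for 5 of the 8 enzyme genes. None was matched for Fdps, Fdft1 or Sqle, so their promoters were not searched. The 250 bases before the RefSeq start were searched on both strands for the core of the sterol regulatory element to which SREBP binds (TCACNCCAC), for the NF-Y box (CCAAT) and for the Sp1 box (GGGCGG), factors known to act beside SREBP. The 4 sequences below are those in which a match lay outside the annotated transcript. They are printed 5′ to 3′ on the gene's strand, up to the RefSeq start or the start of the gene in GENCODE, whichever comes first. Every match in the printed part is in capitals, and a match on the other strand reads as ATTGG or CCGCCC.

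Hmgcs1 (chr13:119690101-119690350, plus strand): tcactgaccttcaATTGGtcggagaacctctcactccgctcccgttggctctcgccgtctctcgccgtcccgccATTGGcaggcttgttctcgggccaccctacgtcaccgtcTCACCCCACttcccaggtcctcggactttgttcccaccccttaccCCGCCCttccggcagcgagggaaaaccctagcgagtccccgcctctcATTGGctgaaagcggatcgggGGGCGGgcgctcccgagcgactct
Lss (chr10:76531355-76531587, plus strand): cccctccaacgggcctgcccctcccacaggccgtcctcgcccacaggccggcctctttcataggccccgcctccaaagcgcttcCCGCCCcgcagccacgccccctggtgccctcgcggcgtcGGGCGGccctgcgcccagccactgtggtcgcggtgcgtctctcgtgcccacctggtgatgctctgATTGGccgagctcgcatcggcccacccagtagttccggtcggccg
Cyp51 (chr5:4104747-4104947, minus strand): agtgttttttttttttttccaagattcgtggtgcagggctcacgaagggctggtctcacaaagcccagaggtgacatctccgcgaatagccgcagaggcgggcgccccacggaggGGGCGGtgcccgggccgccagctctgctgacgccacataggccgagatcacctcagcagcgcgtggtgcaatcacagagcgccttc
Dhcr7 (chr7:143822917-143823144, plus strand): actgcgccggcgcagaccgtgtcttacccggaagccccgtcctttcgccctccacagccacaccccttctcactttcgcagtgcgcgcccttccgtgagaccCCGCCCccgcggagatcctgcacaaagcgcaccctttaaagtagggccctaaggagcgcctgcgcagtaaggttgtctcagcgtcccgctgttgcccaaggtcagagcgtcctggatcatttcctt

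The Hmgcs1 promoter held the sterol element core on its own strand from 137 to 129 bases before the RefSeq start, with 3 NF-Y boxes and 2 Sp1 boxes around it. The core was in 1 of the 5 enzyme promoters and in 1.05% of all 32851 promoter windows of the same length. An NF-Y box was in 4 of the 5, those of Hmgcs1, Idi1, Lss and Cyp51, against 33.8% of all windows, and an Sp1 box was in 5 of the 5, against 32.7%. The NF-Y box of Cyp51 and all matches of Idi1 lay inside the annotated transcript, so they are not printed. None of the 3 motifs shares letters with another in these matches. Dhcr7 had an Sp1 box and neither of the other motifs in the window before its furthest upstream start. The relation of motifs to the change between the ages was not tested. A match describes letters in the window, not a bound site.

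Hmgcs1 encodes the cytosolic HMG-CoA synthase, which condenses acetyl units at the entry to the route. Levels are given as CPM, read counts scaled to a common library size after TMM normalisation, with P6a to P6d and then P30a to P30c in order. The error after ± is the SE for a log2 fold change, and for any other value the SD over 4 libraries at P6 or 3 at P30. Hmgcs1 stood at 103, 94.3, 121 and 118 CPM at P6, against 75.8, 68.8 and 61.7 CPM at P30. Every P6 library lay above every P30 library, as it did for 6 of the 8 enzymes and for 28.8% of all tested genes; 56.6% of tested genes did not overlap in either direction. Hmgcs1 had a log2 fold change of -0.67 ± 0.12 (SE; 95% interval -0.93 to -0.40) with an adjusted p of 0.00105.

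Idi1, the isomerase that interconverts the isoprenoid building units, was the least counted of the 8. It had 2.08, 3.43, 3.004 and 3.21 CPM at P6, against 1.00, 0.905 and 0.772 CPM at P30, and the ages did not overlap. These levels rest on 23 to 163 reads at P6 and 11 to 18 reads at P30. For Idi1 the log2 fold change was -1.71 ± 0.30 with an adjusted p of 0.00114, and its 95% interval, -2.39 to -1.03, was the widest of the 8.

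Fdps, which joins the units into farnesyl diphosphate, had the smallest fall that passed the test. It was at 27.6, 24.0, 24.7 and 29.3 CPM at P6 and at 15.8, 19.1 and 19.5 CPM at P30, again without overlap. Its log2 fold change was -0.54 ± 0.13 with an adjusted p of 0.00620.

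Fdft1, squalene synthase, commits farnesyl diphosphate to sterols. It had 38.2, 32.5, 34.7 and 32.6 CPM at P6, against 39.2, 38.0 and 31.8 CPM at P30. The ages overlapped: the highest and the lowest of the 7 values were both at P30. Fdft1 had a log2 fold change of 0.08 ± 0.11 (95% interval -0.18 to 0.33), an interval of 88.5% to 126% of the P6 level, with an adjusted p of 0.585. Scaled by library totals in place of TMM factors the sign turned, to -0.10, with the test still not passed.

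Sqle, squalene epoxidase, a rate-limiting enzyme of the sterol part, acts on the product of Fdft1. It had 12.5, 14.4, 17.0 and 16.9 CPM at P6, against 2.90, 1.81 and 2.03 CPM at P30. These P30 levels rest on 52, 28 and 29 reads. The lowest P6 library was far above the highest P30 library. This gave a log2 fold change of -2.75 ± 0.22 (95% interval -3.24 to -2.26) with an adjusted p of 1.07e-05, and 2.42% of tested genes had a larger fall.

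Lss, lanosterol synthase, closes the epoxide into the sterol ring system. It was at 7.15, 6.79, 7.24 and 5.82 CPM at P6, against 2.29, 1.62 and 3.37 CPM at P30. The P30 libraries spread more widely, with a coefficient of variation of 36.5% against 9.60% at P6, yet stayed below all of P6. The P30 levels rest on only 41, 25 and 48 reads, and the part of counting noise in this spread was not tested. For Lss the log2 fold change was -1.49 ± 0.26 with an adjusted p of 0.00111.

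Cyp51, lanosterol 14-alpha-demethylase, takes a methyl group off lanosterol. It had 38.0, 46.1, 45.1 and 47.9 CPM at P6 and 21.8, 22.9 and 16.9 CPM at P30, with no overlap. The log2 fold change was -1.11 ± 0.14 with an adjusted p of 1.40e-04.

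Dhcr7, 7-dehydrocholesterol reductase, carries out a last step to cholesterol. It stood at 11.7, 15.9, 12.1 and 9.54 CPM at P6, against 10.4, 10.7 and 11.3 CPM at P30. The P30 libraries lay inside the range of the P6 libraries. Dhcr7 had a log2 fold change of -0.19 ± 0.18 (95% interval -0.60 to 0.21), an interval of 66.1% to 115% of the P6 level, with an adjusted p of 0.382. The plot of enzyme levels in each library shows the 8 side by side.

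**Figure D1:**
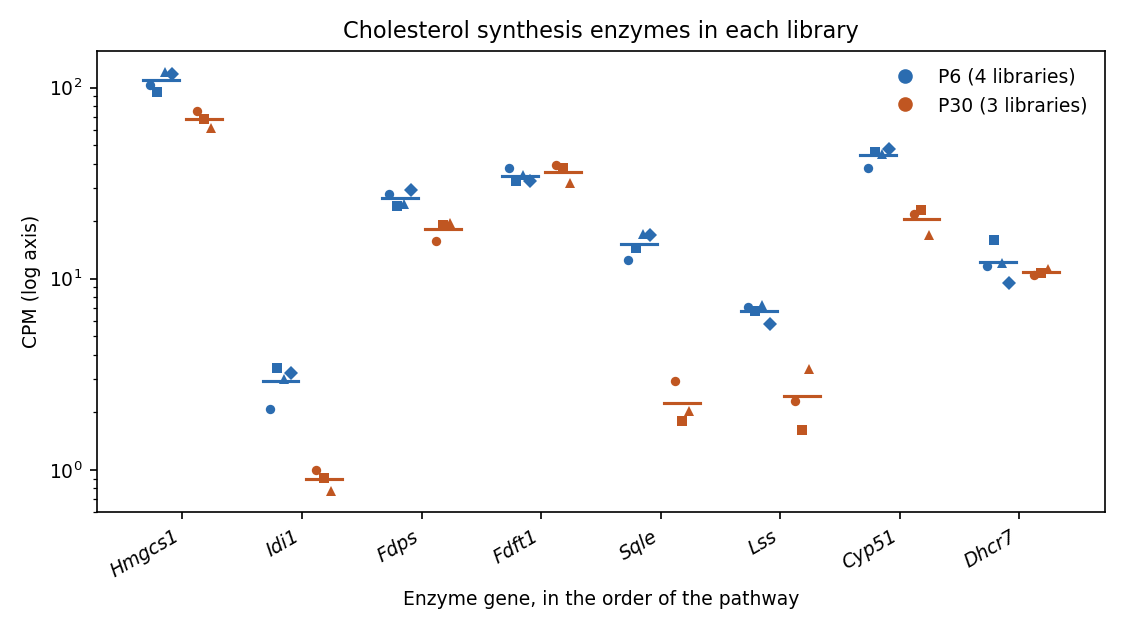
CPM of the 8 cholesterol synthesis enzymes (log axis) in each library, in the order of the pathway; circles, squares, triangles and diamonds are libraries a, b, c and d, and bars are means of 4 P6 and 3 P30 libraries. The ages are apart for Hmgcs1, Idi1, Fdps, Sqle, Lss and Cyp51 and overlap for Fdft1 and Dhcr7.

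In the authors' deposited table of their own DESeq2 comparison the adjusted p was under 0.05 for 6 of the 8 enzymes. The log2 fold change had the sign found here for 8 of 8, and for 12458 of 12561 tested genes. That comparison describes the same libraries, so it is not separate evidence. The authors' deposited table listed Sqle at -2.74 and Fdft1 at 0.10.

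Summed over the 8 enzymes, the level was 251 ± 14.6 CPM (SD, n = 4) at P6 and 160 ± 11.4 CPM (SD, n = 3) at P30. Its makeup shifted with the unequal falls, as a description with no test. Hmgcs1 held 43.3% ± 2.64 of the sum at P6 and 42.9% ± 1.65 at P30. Fdft1 went from 13.8% ± 1.51 to 22.7% ± 0.915, Sqle from 6.03% ± 0.582 to 1.40% ± 0.305, and Cyp51 from 17.6% ± 1.55 to 12.8% ± 1.25.

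Divided by transcript length, so that genes can be compared, Hmgcs1 was the highest at both ages, with 31.5 ± 3.63 CPM per kilobase at P6 and 19.9 ± 2.03 at P30. At P6 it was followed by Fdps, Cyp51, Fdft1, Sqle, Dhcr7, Lss and Idi1. In that order the ranges of Cyp51 and Fdft1 overlapped, and so did those of Sqle and Dhcr7, while the other neighbours were apart. At P30 the order was Hmgcs1, Fdps, Fdft1, Cyp51, Dhcr7, Sqle, Lss and Idi1, with an overlap between Sqle and Lss. Sqle went from 5.52 ± 0.789 to 0.815 ± 0.209 CPM per kilobase and passed below Dhcr7, at 4.37 ± 0.938 and 3.84 ± 0.156.

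Count ratios of neighbouring enzymes in the same library do not depend on library scaling. At P6 the ratio of Sqle to Fdft1 counts was 0.327, 0.445, 0.491 and 0.518. At P30 it was 0.0740, 0.0476 and 0.0639. Its mean was 7.20-fold lower at P30, the largest shift among the 7 ratios. The mean of Lss over Sqle was 0.453 ± 0.0949 at P6 and 1.11 ± 0.473 at P30. For Fdft1 over Fdps it was 1.31 ± 0.137 and 2.04 ± 0.427. Ages overlapped only for Cyp51 over Lss (6.63 ± 1.22 at P6 and 9.57 ± 4.57 at P30) among these 7 ratios. The ratios were chosen after the enzyme values were seen and were not tested.

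**Figure D2:**
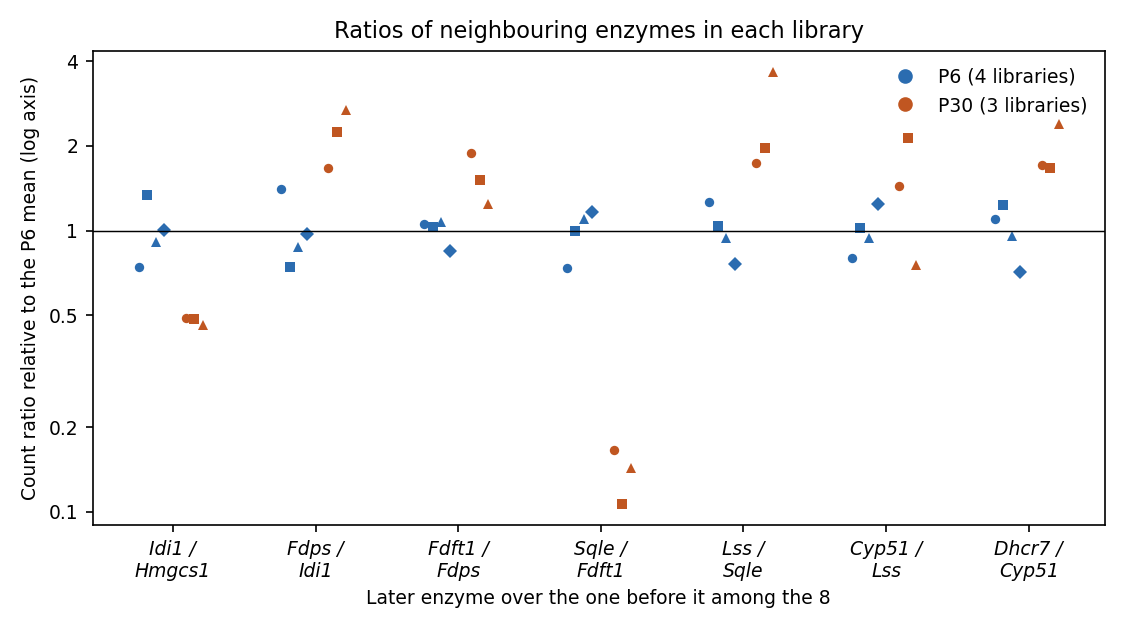
Count ratio of each enzyme to the one before it among the 8, divided by the P6 mean (log axis), in each library; symbols are libraries as in the plot of enzyme levels, and the line marks the P6 mean. The Sqle to Fdft1 ratio is lowest at P30, while the ages overlap for Cyp51 over Lss.

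Within an age, the 8 enzymes were compared by their deviations from the age means. Their mean deviation from the age mean, on the log2(CPM + 0.5) scale, was between -0.09 in P6a and 0.07 in P30a, and at most 6 of the 8 lay above their age mean in any library. Over the 28 pairs of enzymes the median Pearson correlation of these deviations was -0.14 (7 libraries, range -0.83 to 0.78). Idi1 and Cyp51 had the highest value and Lss and Cyp51 the lowest. At P30 Idi1 had only 11 to 18 reads and Lss 25 to 48. Counting noise was not separated from these deviations, so they cannot show whether the enzymes vary together within an age. With the age difference left in, the median was 0.81, and the pairs that include Fdft1 were negative. All these values share library depth and scaling and are given as a description.

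The remaining enzymes of the route that are reported here form a second list. Of 12 listed, 11 were tested; Idi2, a second isomerase, had no reads at P6 and a mean of 0.0186 CPM at P30. Of the 11, 4 fell, none rose and 7 did not pass, with a median log2 fold change of -0.10. Both enzyme lists together gave 10 lower and 0 higher of 19 tested, beside the 27.8% and 26.3% over all genes.

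Among the mevalonate steps, Pmvk, phosphomevalonate kinase, fell by 1.03 ± 0.13 on the log2 scale, from 29.9 ± 2.57 to 14.5 ± 1.59 CPM. The kinase and decarboxylase on either side of it, Mvk and Mvd, did not pass, with log2 fold changes of 0.21 ± 0.25 and 0.08 ± 0.28. Acat2, the cytosolic thiolase, had -0.60 ± 0.25 and an adjusted p of 0.0661, and passed without P30c (0.0314), without P6d (0.0446) or with library totals (0.0261).

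Among the sterol steps, the members of the complex that removes methyl groups from the ring fell: Msmo1 by 1.14 ± 0.27, Nsdhl by 0.65 ± 0.15 and Hsd17b7 by 1.40 ± 0.23 on the log2 scale. The sterol reductases Lbr and Tm7sf2 had log2 fold changes of -0.10 ± 0.12 and 0.54 ± 0.30, the isomerase Ebp 0.19 ± 0.12 and the desaturase Sc5d 0.26 ± 0.14, none past the test. The plot of changes along the pathway shows the intervals of these genes.

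**Figure D3:**
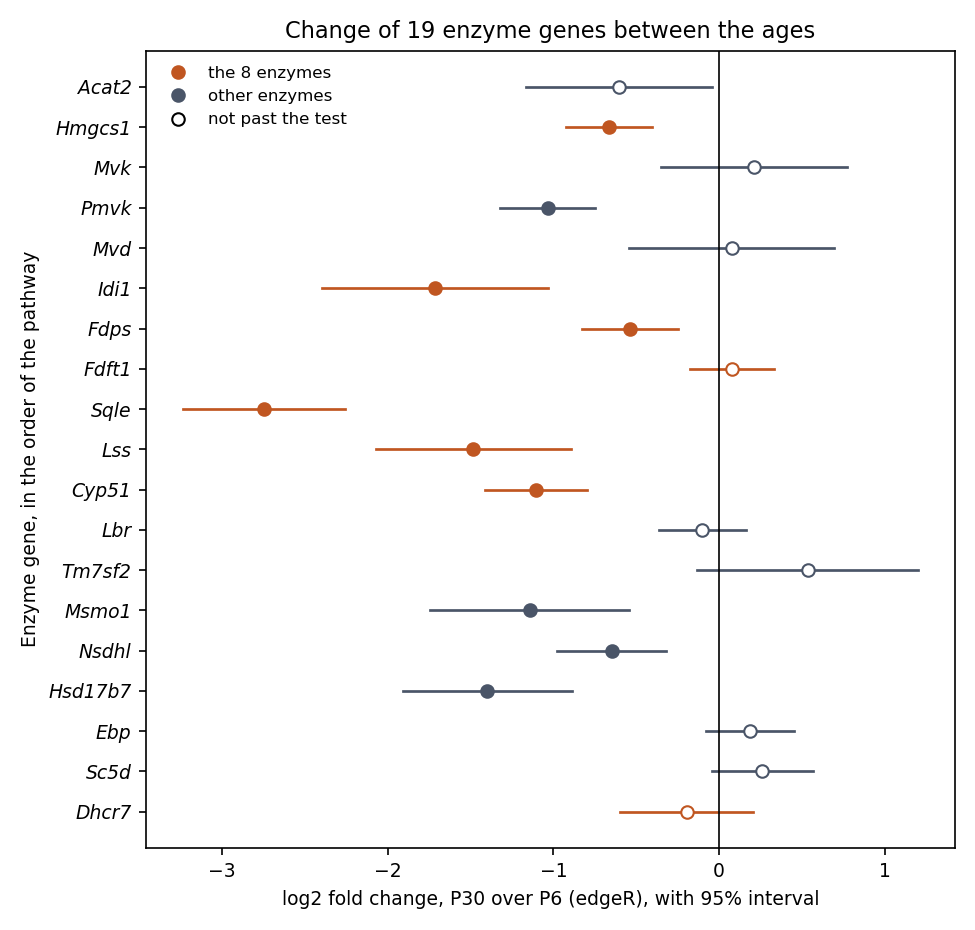
Log2 fold change, P30 over P6, of 19 tested enzyme genes in the order of the pathway, with 95% intervals from edgeR; filled points passed the test at an adjusted p under 0.05. Sqle at -2.75 and Idi1 at -1.71 lie furthest to the left. The intervals of Fdft1, Dhcr7, Mvk, Mvd, Lbr, Tm7sf2, Ebp and Sc5d cross 0. That of Acat2 does not, though its adjusted p did not pass.

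Of 9 tested genes that control the enzymes, 3 fell, 2 rose and 4 did not pass, shares near the 27.8% lower and 26.3% higher of all tested genes. The median log2 fold change was -0.21. With library totals 1 of the 9 rose. Srebf2, which encodes SREBP2, had 44.6, 56.4, 58.1 and 51.5 CPM at P6 and 19.7, 17.1 and 17.5 CPM at P30. Its libraries did not overlap, and it fell by 1.54 ± 0.12 on the log2 scale with an adjusted p of 1.21e-05. Srebf1, the related factor of fatty acid genes, had 40.7 ± 7.71 CPM at P6 and 42.0 ± 1.15 CPM at P30, with a log2 fold change of 0.05 ± 0.15 whose sign turned with library totals (-0.14) and without P6c or P6d. The escort Scap did not pass, at 0.09 ± 0.11, a sign that also turned with library totals.

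The INSIG genes went in opposite directions. Insig1, itself a target of SREBP, had 18.5, 20.8, 16.1 and 17.1 CPM at P6 and 7.53, 5.95 and 5.12 CPM at P30, and fell by 1.54 ± 0.17 on the log2 scale. Insig2 rose by 0.48 ± 0.11, from 82.9 ± 11.4 to 115 ± 2.71 CPM. The ages did not overlap for either gene.

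Of the ubiquitin ligases of sterol-regulated degradation, Rnf145 fell by 1.03 ± 0.14 on the log2 scale and Rnf139 rose by 0.38 ± 0.10, a call lost with library totals (adjusted p = 0.0909). The proteases that release SREBP, Mbtps1 and Mbtps2, did not pass, at -0.22 ± 0.13 and -0.21 ± 0.18, and Mbtps1 passed with library totals (adjusted p = 0.0359).

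Genes of sterol uptake and trafficking gave 5 higher and 2 lower of 12 tested, and over all tested genes 54.1% passed in either direction. They had a median log2 fold change of 0.13. Library totals, or the length trend taken out, gave 4 lower. Scarb1, a scavenger receptor for lipoproteins, fell by 0.73 ± 0.13 on the log2 scale. The other gene that fell was Npc2, a lysosomal sterol carrier, by 0.79 ± 0.11; it was named after its value was seen. Vldlr, a receptor for triglyceride-rich lipoproteins, rose by 0.63 ± 0.09, from 273 ± 20.8 to 424 ± 31.3 CPM. Osbp, an oxysterol-binding carrier, rose by 0.95 ± 0.12, and Lrp1, a large endocytic receptor, by 1.71 ± 0.30 to 13.7 ± 6.47 CPM, with P30b the highest.

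Of 7 tested genes of sterol efflux and oxysterol formation, 2 rose and 3 fell, beside 26.3% and 27.8% of all tested genes, with a median log2 fold change of 0.40. Cyp27a1, a mitochondrial sterol hydroxylase, rose by 0.91 ± 0.15. The other gene that rose was Nr1h3, the liver X receptor alpha gene, with a log2 fold change of 2.47 ± 0.25. Its level was low at P6, 1.51 ± 0.406 CPM on 12 to 80 reads, and 8.66 ± 1.46 CPM at P30. Nr1h3 was named after its value was seen. Apoe fell by 0.91 ± 0.24. Cyp46a1, a neuronal cholesterol hydroxylase, fell by 2.69 ± 0.38, from 3.65 ± 1.13 to 0.566 ± 0.186 CPM. Its P30 level rests on only 9, 12 and 6 reads. Nr1h2, the other liver X receptor gene, fell by 0.27 ± 0.09, a call lost with no filter on low counts, with the length trend taken out and without each of the P30 libraries in turn (adjusted p up to 0.110). Abca1, the efflux transporter, had a log2 fold change of 0.40 ± 0.21 and did not pass (adjusted p = 0.132), and it passed without P6b (0.0257).

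Genes that draw isoprenoids off the route gave 4 higher and 1 lower of 12 tested, beside 26.3% and 27.8% of all tested genes, with a median log2 fold change of 0.27. The gene that fell was Ggps1, which makes geranylgeranyl diphosphate, by 1.10 ± 0.17 on the log2 scale. Coq2, the prenyltransferase of ubiquinone synthesis, had 88.4, 77.4, 92.0 and 92.1 CPM at P6 and 167, 164 and 166 CPM at P30. It rose by 0.92 ± 0.09 with an adjusted p of 2.76e-05. Fnta, the subunit shared by both CaaX prenyltransferases, rose by 0.65 ± 0.09. With library totals the counts of this list were 2 higher and 2 lower.

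In fatty acid synthesis, the lipid route that SREBP1 is known to control, 5 of 10 tested genes fell and 3 rose, beside 27.8% and 26.3% of all tested genes, and the median log2 fold change was -0.64. Scd2, a fatty acid desaturase, had 140, 165, 147 and 119 CPM at P6 and 48.0, 31.2 and 47.4 CPM at P30, a fall of 1.76 ± 0.17 on the log2 scale. Fasn, fatty acid synthase, fell by 1.06 ± 0.21, from 121 ± 37.6 to 58.0 ± 5.46 CPM. Acacb, the acetyl-CoA carboxylase of the mitochondrial surface, rose by 0.98 ± 0.11.

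**Figure D4:**
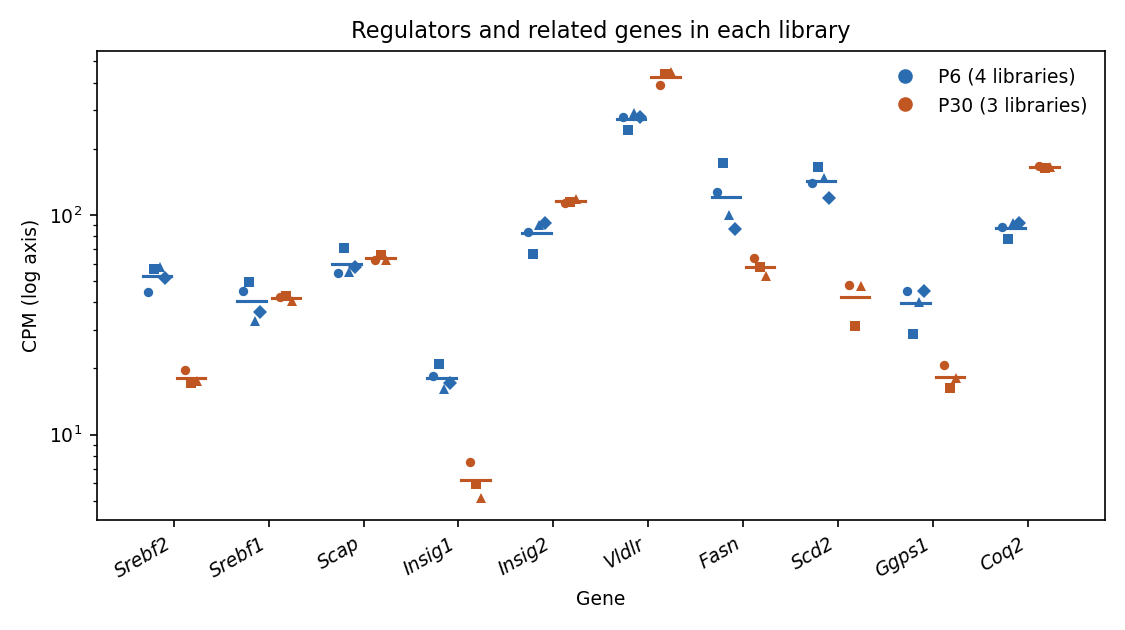
CPM (log axis) of SREBP regulators, a lipoprotein receptor and genes of neighbouring routes in each library; symbols are libraries as in the plot of enzyme levels, and bars are means of 4 P6 and 3 P30 libraries. Srebf2, Insig1, Fasn, Scd2 and Ggps1 are lower at P30, Insig2, Vldlr and Coq2 are higher, and Srebf1 and Scap overlap.

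The tested genes whose log2 CPM followed the mean of the 8 standardised enzymes most closely over the 7 libraries were Mcm4, Stxbp2, Mpzl1, Alg14 and Prmt3, with Pearson correlations of 0.999 down to 0.997. Their own log2 fold changes ran from -2.91 ± 0.18 for Stxbp2 to -0.62 ± 0.10 for Prmt3, so this likeness holds the age difference. For deviations from the age means the nearest were Arhgap44, Ipo5, Zfp319, Ube2s and Mknk1, with correlations of 0.980 down to 0.970; Arhgap44 and Ipo5 rose between the ages, by 0.36 ± 0.11 and 0.93 ± 0.08. The call for Arhgap44 was lost with library totals (adjusted p = 0.195) and without P30a (0.0826). These are the highest of many genes over 7 libraries that share depth and scaling.

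Total counts were between 10594932 and 51427646 in the P6 libraries and between 15555469 and 19368717 in the P30 libraries, so that 3 reads were worth 0.0553 to 0.271 CPM, below the level of each of the 8 enzymes in every library. No library repeated another, since the lowest chi-square per gene between libraries of an age was 12.3. Markers of cardiomyocytes such as Myh6 and Tnnt2 were high in every library, with a sum over 8 markers of 63263 to 75604 CPM at P6 and 94252 to 96988 CPM at P30. Of the 8, 4 rose (Myh6, Tnni3, Ryr2 and Ttn) and 4 did not pass, Tnnt2 among them, and Myh6 was the largest part of the sum. Over all tested genes 26.3% rose and 27.8% fell, and the marker counts of each cell type are to be read beside these shares. Endothelial markers rose in 5 of 5 cases, with a sum of 63.1 to 113 CPM at P6 and 206 to 420 CPM at P30. Of the 5 macrophage and leukocyte markers 4 rose, and the sum went from 1.79 to 4.47 CPM at P6 to 10.5 to 31.2 CPM at P30. Of the 5 smooth muscle and pericyte markers 3 rose (Myh11, Pdgfrb and Rgs5), with sums of 937 to 2122 CPM at P6 against 905 to 1754 CPM at P30. Acta2, which did not pass, was by far the largest part of these sums, so they say little of the markers that rose. Of the 6 fibroblast markers 1 fell, with sums of 155 to 381 CPM at P6 against 133 to 302 CPM at P30. No Schwann or epicardial marker passed the test; their sums were at most 6.39 CPM in any library. None of the 4 adipocyte markers was counted enough to be tested, and their sum was at most 0.0369 CPM at P6, against 0.842 CPM at P30. The part of other cell types in the enzyme results was not tested.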

How the data were processed

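RNA from sorted cardiomyocytes was copied with SMART-Seq v4 and made into Nextera XT libraries, per the labels' protocols. The authors deposited raw read counts per gene symbol, made with CASAVA 1.8, STAR 2.5.3a and featureCounts of Subread 1.5.2 on mm10, per the submitters' processing notes; no source used here gives the annotation, strand setting or treatment of multi-mapping reads. The count columns name the age and a letter that no label explains, so libraries were grouped by age alone.

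The authors also deposited a DESeq2 comparison. Per the file headers it holds a mean signal (baseMean, counts scaled by size factor), log2 fold changes with standard errors, a Wald score, and p-values with adjusted p-values; its sign was P30 over P6 in 12458 of 12561 tested genes. Only its log2 fold changes and adjusted p-values are quoted.

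The counts went into edgeR 4.0.16 under R 4.3.3, with low genes removed by filterByExpr, TMM factors and a quasi-likelihood model holding only age, and with Benjamini-Hochberg adjustment over 12561 genes and a threshold of 0.05. Each SE is the log2 fold change divided by the square root of the F statistic. CPM uses TMM-scaled library sizes; per-kilobase values use the longest coding transcript of GENCODE M21, which had 99.0% of tested genes. In data simulated from this comparison over 12561 genes, a small random set was changed, as many up as down. Of that set, 65.5% of genes changed 2-fold and 93.9% of those changed 4-fold were found, with 4.66% of calls false. In the real comparison 54.1% of tested genes passed, so these rates need not hold for it.

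The enzymes and gene lists were chosen with earlier results of these data known, and no list was tested as a set. The listed enzymes and SREBP regulators are named; from each other list the rule takes the 2 most counted genes past the threshold in the more frequent direction, the largest change at a mean of at least 1 CPM and the most counted gene in the other direction, and adds Abca1 and Fasn. A few genes of these lists are not reported here, and the lists' counts and medians leave them out. The nearest genes by pattern had a mean of at least 10 CPM. Msmo1 stands in the table under an older symbol. Alternatives were DESeq2 size factors, library totals, the DESeq2 1.42.0 test, no filter, a lowess trend on transcript length (span 0.3) taken out, and each library left out.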

Additional observations from a re-analysis of the deposited data

Results flagged for a closer look

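Among the 57 tested genes whose fold change is given, 3 had a P6 library far from the other 3; chance alone sets a library apart in about 1 of 20 groups. None of the 8 enzymes was among them. Osbp had 157 CPM in P6b, above the other P6 libraries. Alg14 had 22.5 CPM in P6c, the highest at P6, and Mknk1 had 16.5 CPM in P6a, the lowest.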

How the results depend on the processing

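The count of 6 enzymes lower and none higher was the same under all 12 alternatives, and the adjusted p of each of these 6 enzymes stayed under 0.05 in all 12, with 0.0329 for Fdps without P30a as the highest. Library totals in place of TMM factors moved the median over all genes, on the log2 scale, from -0.02 to -0.20, and gave 2408 genes higher and 4658 lower against 3307 and 3490; changes are therefore relative to the bulk of genes. The summed enzyme level had a log2 ratio of -0.65, and -0.83 with library totals. Sterol uptake genes gave 4 lower in place of 2 with library totals and with the length trend taken out, SREBP regulators 1 higher in place of 2 with library totals, and isoprenoid branch genes 2 higher in place of 4 and 2 lower in place of 1 with library totals. Signs turned for genes that did not pass at either setting: with library totals Fdft1 was at -0.102, Mvd at -0.115, Srebf1 at -0.139, Scap at -0.0962 and Mknk1 at -0.119; with 1 library left out Mvd ran from -0.0661 to 0.417, Srebf1 from -0.0545 to 0.154 and Mknk1 from -0.0451 to 0.152. The cause of these changes was not tested.

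Over the 57 tested genes whose fold change is given, 659 of 684 alternative values kept both direction and side of the threshold, 8 lost the call and 6 gained it, and 11 changed sign. No paired analysis was possible because the labels name no pairing across ages and tie the letters of the count columns to no replicate number. Idi1 had 11 to 18 reads in the P30 libraries, the lowest counts of the 8 enzymes.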
